A study of Mus musculus with 8 samples.

Results

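The chaperones of the endoplasmic reticulum (ER) examined here are 10 genes: Hspa5, Hsp90b1, Pdia3, Pdia4, Pdia6, Calr, Canx, Sdf2l1, Dnajb9 and Hyou1. They were taken by name from the platform annotation, using probe sets that carry a single gene symbol, and 22 probe sets matched, out of 34958 probe sets with 1 symbol for 18194 genes. All 10 genes passed the filter on dim probe sets through their brightest probe set, and 14267 genes passed in all. RNA came from mouse embryonic stem cells of strain 129X1 x 129S1, in 4 groups of 2 Affymetrix arrays. In the shTop1 coculture, cells with a short hairpin RNA against Top1, a DNA topoisomerase gene, shared a dish with mock cells at 1:4 for 4 days. In the shTop1 mix the same kinds of cells were kept in separate dishes over the 4 days, and RNA from them was combined at 1:4. The shp53 coculture and the shp53 mix were made in the same way with a hairpin against p53, the stress-responsive tumour suppressor. Mock cells therefore made up most of the starting material in every group, and the labels do not give the share of knockdown cells in a coculture after 4 days. The labels call the 2 arrays of a group biological replicates without naming separate thaws or passages, so a p-value here speaks only of the spread among these 8 arrays, whose small number limits the precision.

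Proteins that enter the secretory pathway fold in the ER. Hspa5 (BiP) holds unfolded chains through its ATPase cycle with the help of DnaJ-type cochaperones, calnexin and calreticulin hold chains through their sugars, and protein disulfide isomerases form and reshuffle disulfide bonds. When unfolded proteins build up, the sensors IRE1, ATF6 and PERK start the unfolded protein response, and ATF6 and XBP1 raise many of these chaperone genes through a promoter sequence called the ER stress response element, which NF-Y and ATF6 bind together. Embryonic stem cells divide fast and secrete matrix and signalling proteins.

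The promoters are shown first because that element is what links these genes in the literature. RefSeq promoters of build GRCm38.p6, each running from 250 bases before to 50 bases after the annotated start, were found for 9 of the 10 genes, and Hyou1 was not among them. The full element was searched on both strands as CCAAT and CCACG with 9 bases of any kind between them. No mismatch was allowed, so near matches were not counted. It was present in 5 of the 9 promoters (Hspa5, Hsp90b1, Pdia6, Calr and Canx), and in 39 of all 32851 promoters of this length, or 0.119%. Since the element already links these genes in the literature, the 5 of 9 is a description and no independent result. Neither ATTGG and CCACG with 1 base between them, a shorter element of the same response, nor TGACGTGG, a site of XBP1, matched in any of the 9, and these occurred in 0.0365% and 0.676% of all promoters. Its end pieces are common: CCAAT was in 9 of 9 and in 37.4% of all promoters, and CCACG was in 8 of 9 and in 32.8%. Each match is a match of letters and no evidence of binding, and the full element contains both end pieces. The 250 bases before the start are printed 5′ to 3′ for 4 genes, with the fixed bases of the element in capitals. Hspa5 (chr2:34771840-34772089 on the plus strand) is the best-studied target, Hsp90b1 (chr10:86705445-86705694 on the minus strand) had the element in both orientations, and Pdia6 (chr12:17266339-17266588 on the plus strand) and Sdf2l1 (chr16:17132384-17132633 on the minus strand) carried the largest coculture differences described further on. No letters are in capitals for Sdf2l1, whose promoter window held no full element.
Hspa5: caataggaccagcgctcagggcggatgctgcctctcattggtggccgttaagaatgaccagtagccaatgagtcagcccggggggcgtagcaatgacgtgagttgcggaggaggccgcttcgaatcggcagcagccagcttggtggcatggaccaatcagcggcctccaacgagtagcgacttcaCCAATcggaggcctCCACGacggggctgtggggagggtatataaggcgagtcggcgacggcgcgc
Hsp90b1: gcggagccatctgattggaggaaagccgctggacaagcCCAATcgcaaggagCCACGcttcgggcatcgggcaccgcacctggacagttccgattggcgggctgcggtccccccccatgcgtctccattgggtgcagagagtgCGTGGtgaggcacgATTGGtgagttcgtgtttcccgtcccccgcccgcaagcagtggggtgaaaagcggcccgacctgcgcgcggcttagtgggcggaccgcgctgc
Pdia6: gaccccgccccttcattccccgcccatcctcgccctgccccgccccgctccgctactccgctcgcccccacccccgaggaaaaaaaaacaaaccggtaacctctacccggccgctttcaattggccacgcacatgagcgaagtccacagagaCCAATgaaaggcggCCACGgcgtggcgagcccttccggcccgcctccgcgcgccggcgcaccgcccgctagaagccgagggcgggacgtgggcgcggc
Sdf2l1: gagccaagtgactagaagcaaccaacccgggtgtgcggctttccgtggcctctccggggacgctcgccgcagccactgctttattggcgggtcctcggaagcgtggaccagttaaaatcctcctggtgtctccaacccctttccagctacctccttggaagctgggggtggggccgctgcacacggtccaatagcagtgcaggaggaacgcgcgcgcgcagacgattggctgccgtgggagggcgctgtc

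The element began 65 bases before the start in Hspa5, 98 bases before it in Pdia6 and 145 bases before it in Canx, the membrane-bound lectin chaperone calnexin. In Hsp90b1 it began at 212 bases in the orientation of the gene and at 107 bases in the opposite one, and in Calr, which encodes the soluble lectin chaperone calreticulin, it lay at 162 bases in the opposite orientation. The matched stretches of the genes whose promoters are not printed are shown on the strand of the gene, in capitals throughout, for comparison with the others. Both genes lie on the minus strand of GRCm38.p6.
Calr element, chr8:84847075-84847093: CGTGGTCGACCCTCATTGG
Canx element, chr11:50325800-50325818: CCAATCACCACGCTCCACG

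**Figure D1:**
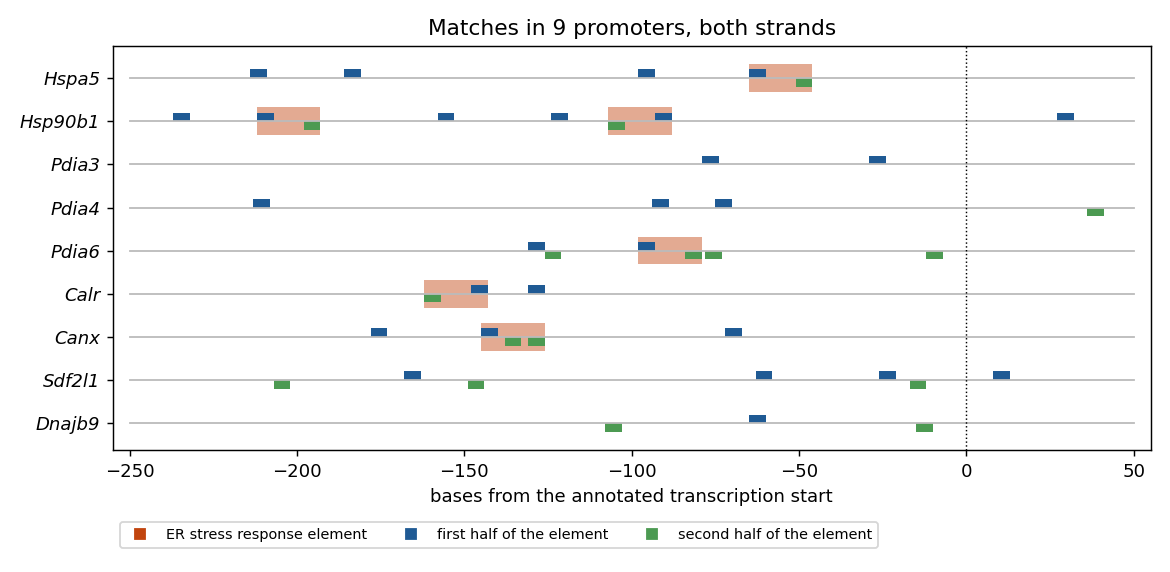
Matches to the ER stress response element and its end pieces in 9 promoters, with distance in bases from the annotated transcription start on the horizontal axis and a row for each gene; wide orange boxes are full elements, small blue boxes are CCAAT and small green boxes CCACG, on either strand. Hsp90b1 holds 2 full elements, Hspa5, Pdia6, Calr and Canx 1 each, and the other 4 promoters none.

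Signals are the deposited linear intensities after quantile normalization across the 8 arrays. Differences are on the scale log2(signal + 16), and the fit over all 14267 genes shared its estimate of the spread between the 4 groups. A gene was called at a Benjamini-Hochberg adjusted p under 0.05. The trimmed mean of the deposited values was 500.003 to 500.004 on every array, and mean signal was 812 to 896. The shTop1 coculture replicate 1 stood apart from the others, with 32.6 on the next principal component after the first, against -15.5 to 3.63 on the other 7 arrays. On the first component shTop1 coculture replicate 2 was the highest, at 26.1, against -21.1 to 12.5 on the others. Values are therefore also given without replicate 1, and in some genes without replicate 2, where it matters. Top1 had a signal of 5247 ± 93.3 in the shTop1 arrays and 5649 ± 183 in the shp53 arrays (SD, n = 4 each; p = 0.029 in an exact two-sided permutation test, the smallest that 4 against 4 allows), and the gene for p53 was not analysed here. Stem cell identity was checked with 10 markers, among them Pou5f1, Nanog and Sox2, all of which passed the filter, with a summed signal of 115261 to 123144 in the cocultures and 119191 to 121478 in the mixes. Of these, 6 were above 0 and 4 below in coculture minus mix, with Zfp42 (-0.28) at an unadjusted p under 0.05 and Sox2 at -0.29.

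Averaged over both knockdowns, 6 of the 10 chaperone genes were above 0 and 4 below in coculture minus mix, and 0 of 10 passed the test over all genes, where 0% of genes passed. The adjusted p of the 10 ranged from 0.345 to 0.877, and the smallest over all genes was 0.279. Without adjustment, limma's p was under 0.05 in 2 members that were higher, Pdia6 and Sdf2l1, and 0 lower, against 7.09% of all genes higher and 4.63% lower. The median of the members was 0.094, against 0.022 over all genes, and 55.3% of all genes were above 0. With the probe sets of each gene averaged it was 0.0094, against 0.012 over all genes, and over every probe set -0.018, against 0.0077. In Pdia6 and Sdf2l1 all 4 cocultures lay above all 4 mixes, as they did in 5.75% of all genes, and no member had all 4 cocultures below all 4 mixes, which held for 3.35%.

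**Figure D2:**
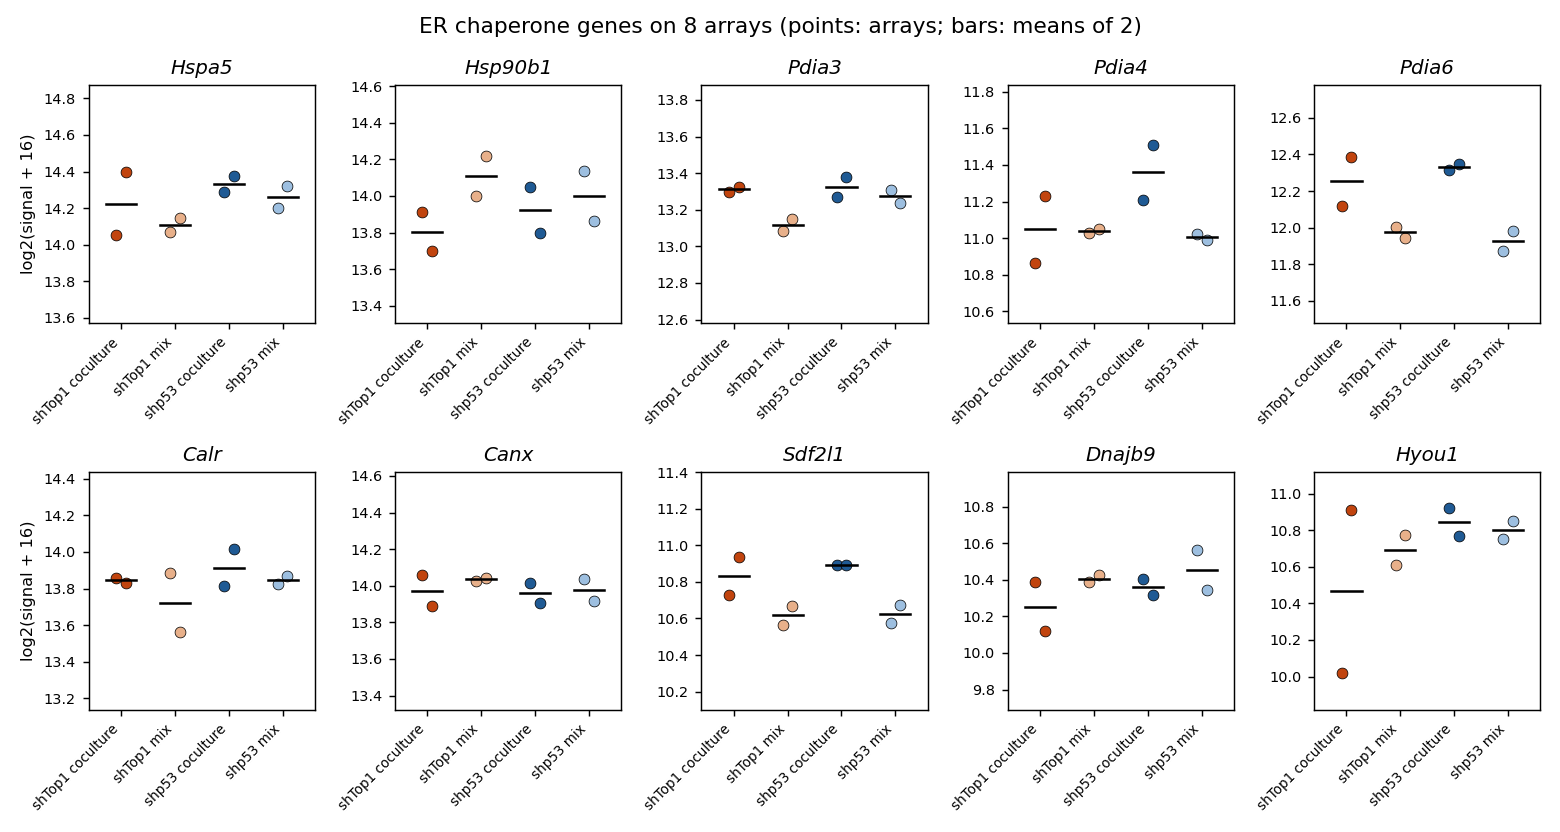
Level of each ER chaperone gene as log2(signal + 16) by its brightest probe set, 1 panel per gene with axes of equal span; points are single arrays and bars the means of 2 arrays in each group. Pdia6 and Sdf2l1 have every coculture above every mix, and Hyou1 has a single low point in the shTop1 cocultures.

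The 3 disulfide isomerases were all above 0 in coculture minus mix, and Pdia6 had the largest difference of the 10 genes. Pdia6 encodes P5, an isomerase that works with BiP and can dampen the unfolded protein response sensors. Its signal was 4432 and 5347 in the shTop1 cocultures, against 4098 and 3919 in the shTop1 mixes, and 5087 and 5189 in the shp53 cocultures, against 3731 and 4032 in the shp53 mixes. Every coculture was above every mix. The log2 difference was 0.34 ± 0.0868 (SE; 95% interval 0.13 to 0.55; limma adjusted p = 0.345), a ratio of 1.27, with 0.28 for shTop1 and 0.40 for shp53. The unadjusted p was 0.0074, and the exact permutation test of 4 cocultures against 4 mixes gave p = 0.029, two-sided. Leaving out shTop1 coculture replicate 1 the difference was 0.41, and leaving out any 1 array it lay between 0.27 and 0.41.

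A dimmer Pdia6 probe set had the opposite sign. It had 98.5 and 123 in the shTop1 cocultures, against 178 and 166 in the shTop1 mixes, and 129 and 179.7 in the shp53 cocultures, against 164 and 120.0 in the shp53 mixes. The shTop1 cocultures were below the shTop1 mixes, and the shp53 groups overlapped. Its log2 difference was -0.23 ± 0.156 over both knockdowns and -0.57 in shTop1 (SE 0.221, limma adjusted p = 0.68). With the mean of both probe sets Pdia6 had 0.054 and an unadjusted p of 0.615, so its difference rests on the brighter probe set, which lies at the 95.9th percentile of mean signal against the 61.9th for the other.

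Pdia4 encodes ERp72, an isomerase with several thioredoxin-like domains. Its signal was 1847 and 2388 in the shTop1 cocultures, against 2072 and 2105 in the shTop1 mixes, and 2349 and 2903 in the shp53 cocultures, against 2062 and 2020.0 in the shp53 mixes. Both shp53 cocultures were above all 4 mixes, while the shTop1 cocultures lay on either side of them. The log2 difference was 0.18 ± 0.115 (SE; 95% interval -0.10 to 0.46; limma adjusted p = 0.568), with 0.0081 for shTop1 and 0.35 for shp53. The difference between the knockdowns was -0.34 ± 0.23 (SE, limma adjusted p = 1). Without shTop1 coculture replicate 1, its lowest value, Pdia4 had 0.27 over both knockdowns and all remaining cocultures were above the mixes. Without shTop1 coculture replicate 2 it had 0.090. The other Pdia4 probe set was below the filter, with a log2 difference of 0.55.

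Pdia3 encodes ERp57, the isomerase that acts on glycoproteins held by calnexin and calreticulin. It had a signal of 10063 and 10228 in the shTop1 cocultures, against 8678 and 9061 in the shTop1 mixes, and 9863 and 10633 in the shp53 cocultures, against 10135 and 9641 in the shp53 mixes. The shTop1 groups did not overlap and the shp53 groups did. The log2 difference was 0.12 ± 0.0686 (SE; 95% interval -0.045 to 0.29; limma adjusted p = 0.521), with 0.19 for shTop1 and 0.051 for shp53. Another Pdia3 probe set, at signals of 37.2 to 61.4 in the cocultures and 55.5 to 68.0 in the mixes, had a log2 difference of -0.25 ± 0.107 (SE, limma adjusted p = 0.568), the opposite sign.

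On their brightest probe sets the lectin chaperones did not differ between coculture and mix beyond the spread between arrays. Calr had a signal of 14807 and 14574 in the shTop1 cocultures, against 15128 and 12064 in the shTop1 mixes, and 14374 and 16565 in the shp53 cocultures, against 14519 and 14954 in the shp53 mixes. The groups overlapped, and the low value was shTop1 mix replicate 2. Coculture minus mix gave a log2 difference of 0.094 ± 0.1 (SE; 95% interval -0.15 to 0.34; limma adjusted p = 0.734), and 0.013 without that array. The other Calr probe sets had 0.15 and 0.098, the same sign (limma adjusted p = 0.668 and 0.756). On both, the cocultures of each knockdown were above its own mixes, but not every coculture was above every mix. Canx had a signal of 17047 and 15144 in the shTop1 cocultures, against 16664 and 16872 in the shTop1 mixes, and 16565 and 15309 in the shp53 cocultures, against 16812 and 15452 in the shp53 mixes. Its groups overlapped in both knockdowns, with a log2 difference of -0.039 ± 0.0786 (SE; 95% interval -0.23 to 0.15; limma adjusted p = 0.868) and a range of 15144 to 17047 in all. The other Canx probe sets had -0.087 and -0.018.

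The ATP-driven chaperones had differences of both signs. Hspa5, which encodes BiP, the HSP70 of the ER and the classical reporter of ER stress, had a signal of 16953 and 21549 in the shTop1 cocultures, against 17166 and 18108 in the shTop1 mixes, and 20029 and 21263 in the shp53 cocultures, against 18801 and 20482 in the shp53 mixes. Cocultures and mixes overlapped in both knockdowns, and shTop1 coculture replicate 1 was the lowest of all 8 arrays. Both statements depend on quantile normalization in shTop1. In the deposited values the shTop1 cocultures (19276 and 20631) were above the shTop1 mixes (16497 and 17002). The fitted log2 difference was 0.094 ± 0.0996 (SE; 95% interval -0.15 to 0.34; limma adjusted p = 0.729). It was 0.18 without shTop1 coculture replicate 1 and 0.0084 without replicate 2. Its probe sets differed in sign, with -0.09 and 0.17 for the dimmer pair.

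Hsp90b1 encodes GRP94, the HSP90 of the ER, which folds integrins and Toll-like receptors. Its signal was 15406 and 13269 in the shTop1 cocultures, against 16374 and 19012 in the shTop1 mixes, and 16953 and 14241 in the shp53 cocultures, against 18004 and 14896 in the shp53 mixes. The shTop1 cocultures were below the shTop1 mixes, and the shp53 groups overlapped. In the deposited values, before quantile normalization, the shTop1 groups overlapped too (17749 and 12887 against 16016 and 17758). In coculture minus mix it had a log2 difference of -0.19 ± 0.115 (SE; 95% interval -0.47 to 0.092; limma adjusted p = 0.553), with -0.30 for shTop1 and -0.076 for shp53. With median centring it had -0.081 over both knockdowns and -0.098 in shTop1. It was the lowest of the 10 members, and its other probe set had -0.052 over both knockdowns and -0.0047 in shTop1.

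Hyou1 encodes GRP170, a large HSP70-like protein that exchanges the nucleotide on BiP. It had a signal of 1022 and 1909 in the shTop1 cocultures, against 1549 and 1737 in the shTop1 mixes, and 1922 and 1725 in the shp53 cocultures, against 1706 and 1834 in the shp53 mixes. The value of 1022 in shTop1 coculture replicate 1 was the lowest of the 8, and the other 7 lay between 1549 and 1922. Coculture minus mix gave a log2 difference of -0.093 ± 0.197 (SE; 95% interval -0.58 to 0.39; limma adjusted p = 0.877), 0.13 without that array and -0.32 without the other shTop1 coculture, so the sign rested on single arrays. On another probe set the same array was the highest of the 8, at 875, against 635 to 832 on the other arrays.

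Of the smaller BiP partners, Sdf2l1 and Dnajb9 had opposite signs. Sdf2l1 encodes a stress-induced protein that forms a complex with BiP and the DnaJ protein Dnajb11. Its signal was 1679 and 1946 in the shTop1 cocultures, against 1500.5 and 1610.2 in the shTop1 mixes, and 1883 and 1884 in the shp53 cocultures, against 1508 and 1616 in the shp53 mixes. Every coculture was above every mix, and the shp53 cocultures were almost equal to each other. The fitted log2 difference was 0.24 ± 0.0804 (SE; 95% interval 0.046 to 0.44; limma adjusted p = 0.375), a ratio of 1.18, with 0.22 for shTop1 and 0.27 for shp53. The unadjusted p was 0.0233 and the two-sided exact permutation p 0.029. Leaving out 1 array, the difference lay between 0.19 and 0.29 and its unadjusted p between 0.0132 and 0.0800.

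Dnajb9 encodes ERdj4, a cochaperone of BiP that holds the sensor IRE1 inactive and is itself an XBP1 target. It had a signal of 1322 and 1097 in the shTop1 cocultures, against 1324 and 1359 in the shTop1 mixes, and 1337 and 1257 in the shp53 cocultures, against 1494 and 1286 in the shp53 mixes. The shTop1 cocultures were below the shTop1 mixes with the closest pair at 1322 and 1324, and the shp53 groups overlapped. In coculture minus mix it had a log2 difference of -0.12 ± 0.0948 (SE; 95% interval -0.36 to 0.11; limma adjusted p = 0.629), with -0.15 for shTop1 and -0.10 for shp53.

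**Figure D3:**
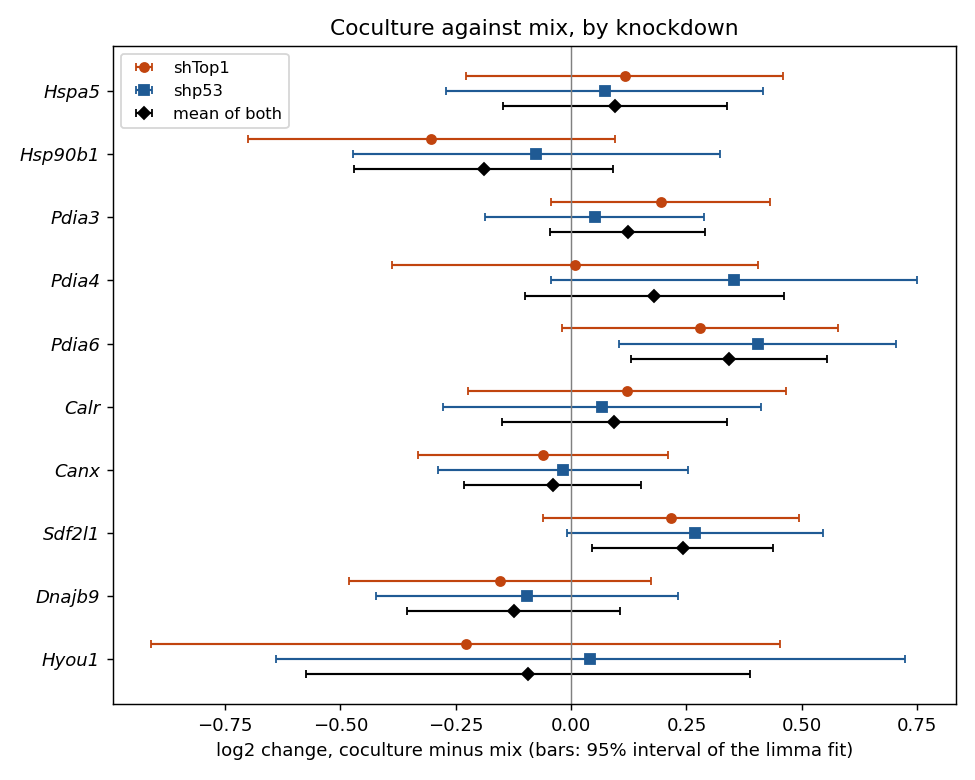
Log2 change of the 10 genes in coculture minus mix, with a row per gene; circles are shTop1, squares shp53 and diamonds the mean of both, and bars are 95% intervals of the limma fit. The intervals of the mean lie above 0 for Pdia6 (0.13 to 0.55) and Sdf2l1 (0.046 to 0.44), before any adjustment for multiple tests, and the other 8 span 0.

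The same comparison was then made within each knockdown. In shTop1, 6 members were above 0 (55.6% of all genes) and 4 below with a median of 0.062, against 0.030 over all genes, and 0 passed (0% of all genes) or had an unadjusted p under 0.05, against 5.12% of all genes higher and 3.08% lower. Both cocultures were above both mixes in 3 members (Pdia3, Pdia6 and Sdf2l1), against 24.5% of all genes, and below in 2 (Hsp90b1 and Dnajb9), against 16.9%. In the deposited values the Hsp90b1 groups overlapped, and both Hspa5 cocultures were above both mixes. In shp53, 7 members were above 0 (53% of all genes) and 3 below with a median of 0.059, against 0.014 over all genes, and 0 passed (0% of all genes). Without adjustment, limma's p was under 0.05 in 1 member that was higher, Pdia6, and in 0 that were lower, against 3.87% of all genes higher and 2.99% lower. Both shp53 cocultures were above both mixes in 3 members (Pdia4, Pdia6 and Sdf2l1), against 20.9% of all genes, and below in 0, against 17.1%. The tests of the difference between knockdowns found 0 of 10 members (0% of all genes), all at an adjusted p of 1 and with 0 at an unadjusted p under 0.05, against 2.63% of all genes higher and 1.68% lower, and their values ran from -0.34 (Pdia4) to 0.14 (Pdia3), with 3 above 0 (51.5% of all genes). In no member were all 4 shTop1 arrays above all 4 shp53 arrays (1.02% of all genes) or below them (1.07%).

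The knockdowns were also set against each other in each condition. In the cocultures, shTop1 minus shp53 was below 0 in 9 of 10 members and above 0 in Canx alone (0.013), with a median of -0.091, against 0.0034 over all genes and 50.9% of all genes above 0. None passed (0% of all genes) or had an unadjusted p under 0.05, against 2.61% of all genes higher and 2.17% lower, and the lowest values were -0.38 for Hyou1 and -0.31 for Pdia4. The count depended on the scaling: 4 of 10 were below 0 with median centring (median 0.030, against 0.060 over all genes) and 6 of 10 with the authors' scaling alone (median -0.037, against -0.0075). With probe sets averaged, 10 of 10 were below 0 (median -0.078, against 0.0097 over all genes), with Hyou1 at -0.0080. Taken singly, 16 of 21 probe sets were below 0. Without shTop1 coculture replicate 1, 6 of 10 were below 0 and the median was -0.036. Without shTop1 coculture replicate 2, 8 of 10 were below 0 and the median was -0.11. On replicate 1 Hspa5, Pdia4 and Hyou1 were at their lowest, though Hspa5 was not in the deposited values. In the mixes the members had a median of -0.027, against -0.0086 over all genes, and ran from -0.16 (Pdia3) to 0.11 (Hsp90b1). There 4 were above 0 (47.6% of all genes) and 0 passed (0% of all genes) or had an unadjusted p under 0.05, against 1.84% of all genes higher and 2.2% lower.

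**Figure D4:**
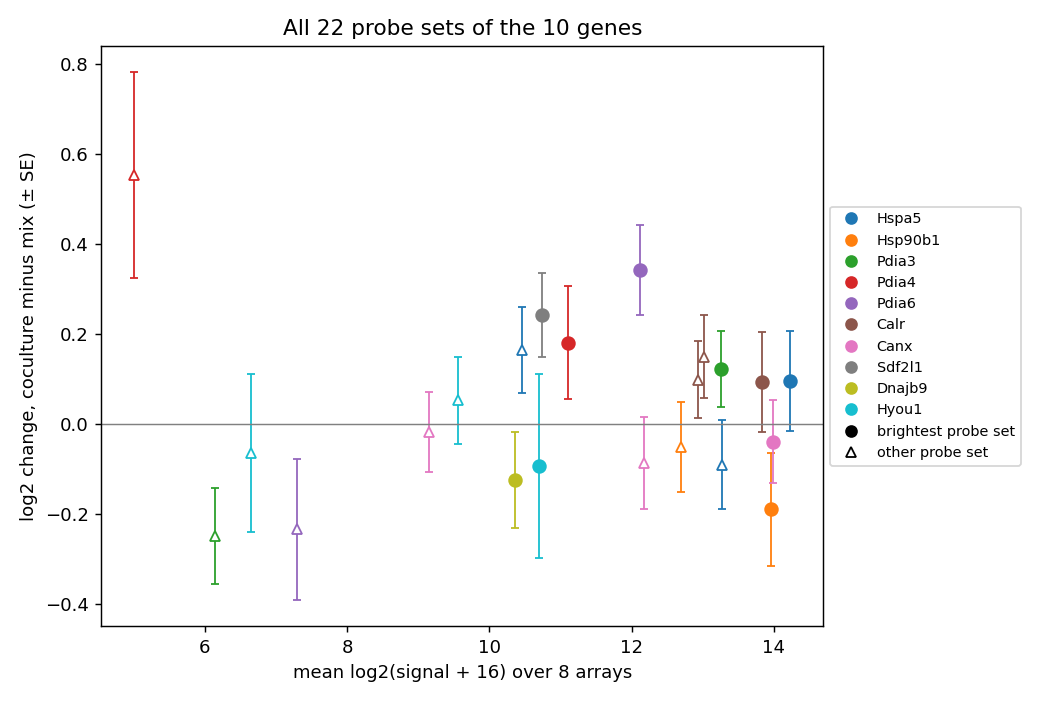
Log2 change in coculture minus mix, averaged over both knockdowns, of all 22 probe sets against their mean log2(signal + 16); filled circles are the brightest probe set of each gene, open triangles the others, bars are SE and colours are genes. The 3 Calr probe sets and the 3 Canx probe sets keep their sign, while those of Hspa5, Pdia3, Pdia6 and Hyou1 lie on both sides of 0.

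Over the 8 arrays the members did not follow a common profile after quantile normalization. Of the 45 pairs of members, 23 had a correlation of log2 levels above 0, the median was 0.013, and values ran from -0.88 (Hspa5 with Canx) to 0.96 (Pdia6 with Sdf2l1). These are descriptions over 8 arrays that share the 4 groups and the normalization. The bright genes depend on that step. On shTop1 coculture replicate 1, Hspa5 had 19276 in the deposited values and 16953 after quantile normalization, and Canx 19294 and 17047. Correlations of the deposited values were not computed, so the low end of the range may differ there. The mean standardized level of the 10 genes was highest in the shp53 cocultures (0.486 and 0.561) and lay between -0.408 and 0.097 on the other arrays. The genes outside the list whose levels were most like this mean were Krtcap3 (r = 0.951), Desi1 (r = 0.946) and Pold3 (r = 0.944), each over 8 arrays and picked as the highest of all genes tested.

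Related genes were read from 8 lists with 125 genes, of which 120 were tested: 7 lists of ER function and 1 of cytosolic and mitochondrial chaperones. Each gene was read from its brightest probe set, and the lists were not refitted with other probe set rules or scalings. For the members, the median fell from 0.094 to 0.0094 with probe sets averaged. In all 81 were above 0 and 39 below, 0 passed over all genes, 12 were higher at an unadjusted p under 0.05 and 2 lower, where the shares over all genes were 55.3% above 0, 7.09% higher and 4.63% lower. The other disulfide isomerases and oxidases stood on the same side as Pdia6: 15 of 16 were above 0 with a median of 0.15, and 5 had an unadjusted p under 0.05, all higher, in a comparison where 7.09% of all genes did so. They were Txndc5, Pdia5, Qsox1, Ero1a, which oxidises the isomerases, and Vkorc1, which recycles vitamin K (0.28, 0.23, 0.25, 0.26 and 0.22 on the log2 scale). The last 3 are named because of their values, and Txndc5 and Pdia5 because they had the lowest p of the list in this comparison. That choice favours genes whose cocultures and mixes lie apart, and every coculture was above every mix in 5.75% of all genes. Txndc5 (ERp46) had a signal of 3146 and 2953 in the shTop1 cocultures, against 2480.4 and 2420.3 in the shTop1 mixes, and 3237 and 2729 in the shp53 cocultures, against 2587 and 2393 in the shp53 mixes. Every coculture was above every mix, with a log2 difference of 0.28 ± 0.0848 (SE; limma adjusted p = 0.357). Pdia5 had a signal of 1669 and 1711 in the shTop1 cocultures, against 1496 and 1490.5 in the shTop1 mixes, and 1847 and 1896 in the shp53 cocultures, against 1454 and 1642 in the shp53 mixes, likewise without overlap, and a difference of 0.23 ± 0.072 (SE; limma adjusted p = 0.367).

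In the list of KDEL receptors and the ER calcium store 9 of 14 genes were above 0 with a median of 0.12, and 3 had an unadjusted p under 0.05, all higher, against 55.3% of all genes above 0 and 7.09% higher. Stim1, the sensor of ER calcium, had a signal of 284 and 263 in the shTop1 cocultures, against 191 and 225 in the shTop1 mixes, and 258 and 293 in the shp53 cocultures, against 209 and 202 in the shp53 mixes, and a log2 difference of 0.39 ± 0.0874 (SE; limma adjusted p = 0.333). Kdelr3, a receptor that returns escaped chaperones from the Golgi, had a signal of 2071 and 2155 in the shTop1 cocultures, against 1894 and 1933 in the shTop1 mixes, and 2411 and 2321 in the shp53 cocultures, against 1831 and 1809.6 in the shp53 mixes, and a log2 difference of 0.26 ± 0.0642 (SE; limma adjusted p = 0.345). In both, the cocultures were above all mixes, as in 5.75% of all genes, but both were picked for the lowest p of the list in this comparison. The other gene at an unadjusted p under 0.05 was Itpr3, a calcium release channel (0.30), named because of its value. Translocon and signal peptide processing genes were above 0 in 13 of 14 (55.3% of all genes) with a median of 0.076 and 0 at an unadjusted p under 0.05, and those with the lowest p were Spcs3 (0.13 ± 0.0711, SE, limma adjusted p = 0.516) and Ssr1 (0.13 ± 0.0768, SE, limma adjusted p = 0.55).

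The remaining lists are to be read against 55.3% of all genes above 0, 7.09% higher and 4.63% lower at an unadjusted p under 0.05. Among 18 sensors and transcription factors of the unfolded protein response 10 were above 0 with a median of 0.0098, and 2 had an unadjusted p under 0.05, both lower. Ppp1r15b, a regulatory subunit of the phosphatase that restores translation, had a signal of 2585 and 2528 in the shTop1 cocultures, against 2800.0 and 2931 in the shTop1 mixes, and 2525 and 2185 in the shp53 cocultures, against 3245 and 2954 in the shp53 mixes. Its cocultures were below all mixes, as in 3.35% of all genes, with a log2 difference of -0.28 ± 0.081 (SE, limma adjusted p = 0.354). Ppp1r15b was picked for its low p in this comparison, which favours such a separation. Nfyc, a subunit of the factor that binds CCAAT, had -0.30 ± 0.0999 (SE; limma adjusted p = 0.375). ER-associated degradation had 9 of 16 above 0 with a median of 0.023, and 2 higher at an unadjusted p under 0.05, the mannosidase-like Edem1 (0.24 ± 0.0811, SE, limma adjusted p = 0.375) and Derl3 (0.31 ± 0.107, SE, limma adjusted p = 0.38). The N-glycan and calnexin cycle list had 10 of 14 above 0 with a median of 0.049, and 1 higher at an unadjusted p under 0.05, Prkcsh, the glucosidase II beta subunit (0.29 ± 0.0975, SE, limma adjusted p = 0.375), beside Mlec at -0.15 ± 0.0698 (SE; limma adjusted p = 0.456). The other ER HSP70, HSP40 and exchange factors had 7 of 12 above 0 with a median of 0.046 and 0 at an unadjusted p under 0.05, with Hspa13 at -0.19 ± 0.081 (SE; limma adjusted p = 0.432) and Sdf2 at 0.18 ± 0.0768 (SE; limma adjusted p = 0.442). Chaperones of the cytosol and mitochondria had 8 of 16 above 0 with a median of 0.00049, and 1 higher at an unadjusted p under 0.05, Dnajb1 (0.27 ± 0.0884, SE, limma adjusted p = 0.371), beside Dnaja1 at -0.13 ± 0.0736 (SE; limma adjusted p = 0.518).

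**Figure D5:**
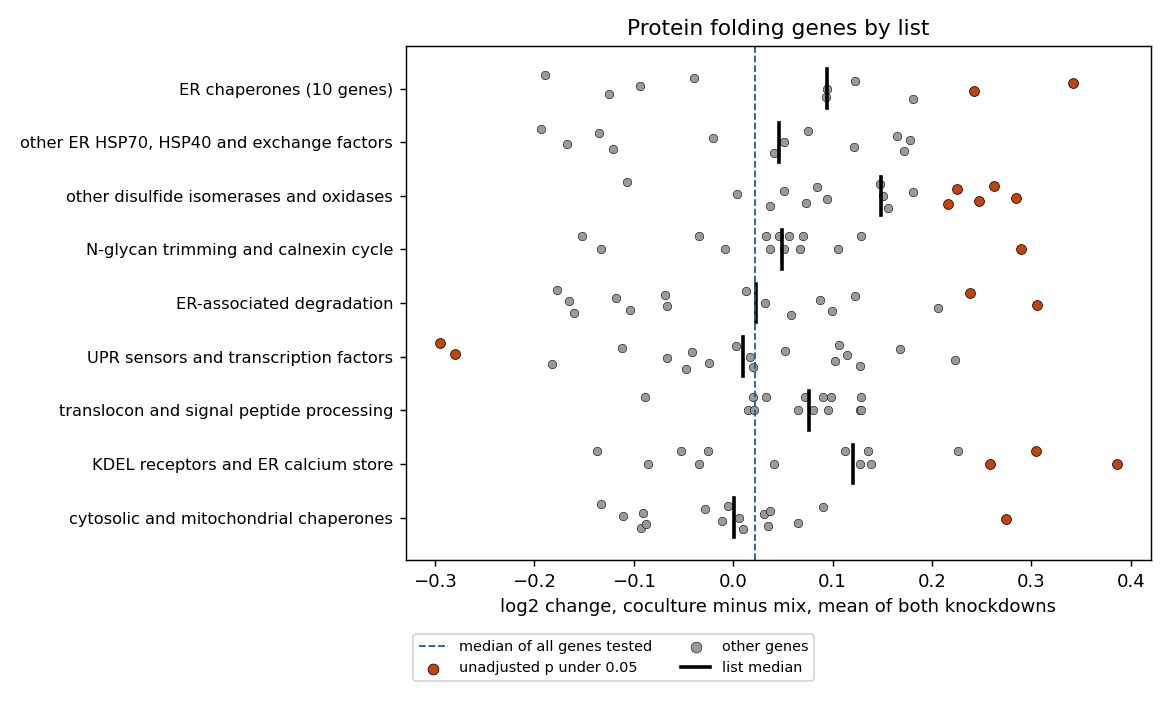
Log2 change in coculture minus mix, averaged over both knockdowns, for the ER chaperones and 8 lists of related genes, with a row per list; points are genes, red where the unadjusted p is under 0.05, black bars are list medians and the dashed line is the median of all genes. The isomerase and oxidase list has 5 red points, all to the right, and the list of sensors and factors has 2, both to the left.

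The genes with a full ER stress response element were set beside the others. Among the members, the 5 with the element ran from -0.19 (Hsp90b1) to 0.34 (Pdia6) with a median of 0.094. The 4 whose promoter held no exact match ran from -0.12 (Dnajb9) to 0.24 (Sdf2l1) with a median of 0.15. The element was present in promoters of 37 genes, of which 32 are not members and 12 of those were tested. Of these 12, 8 were above 0 and 4 below, 0 passed, and 2 had an unadjusted p under 0.05, both higher, against 55.3% and 7.09% of all genes above 0 and higher. They were Derl3 and the mannosyltransferase gene Alg12 (0.28, named because of its value). The 12 also held the ER genes Syvn1 (-0.067), Creld2 (-0.12), Dnajc3 (0.051) and Ero1b (0.0042), and their median was 0.048. In shTop1, 8 of 12 were above 0 (55.6% of all genes) with a median of 0.15, against 0.030 over all genes. In shp53, 5 of 12 were above 0 (53% of all genes) with a median of -0.087, against 0.014 over all genes. The difference between the knockdowns was not tested.

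Markers of cells other than stem cells had higher summed signals in the cocultures. Their counts are to be read against 55.3% of all genes above 0, and 7.09% higher and 4.63% lower at an unadjusted p under 0.05. Every coculture was above every mix in 2 fibroblast markers, 1 endoderm marker and 1 trophectoderm marker, against 5.75% of all genes. Of 10 fibroblast markers, 6 passed the filter and 6 were above 0, with Thy1 (0.35) and Fbln1 (0.36) at an unadjusted p under 0.05, and the summed signal was 1478 to 1760 in the cocultures and 1216 to 1361 in the mixes, without overlap. Fbln1 made up the largest part of this sum, at 827 in the cocultures and 636 in the mixes. The defining genes Dcn, Lum, Postn and Col3a1 were below the filter. They were also below 0 in coculture minus mix (-0.042, -0.22, -0.18 and -0.22). Dcn was at 13.1 in the cocultures and 15.8 in the mixes, and Col1a1 was just above the filter at 25.7 in the cocultures and 23.6 in the mixes. Of 12 markers of primitive and parietal endoderm, cells that secrete basement membrane, 11 passed the filter, 10 were above 0 and 0 had an unadjusted p under 0.05. The summed signal was 67174 to 72916 in the cocultures and 61508 to 65979 in the mixes, also without overlap, while Afp was below the filter. Most of this sum came from the matrix genes Sparc (0.19), Lamb1 (0.11), Col4a1 (0.089) and Col4a2 (0.19), while Gata4 had 0.011 and Ttr -0.038. Of 8 trophectoderm markers 6 passed the filter, 6 were above 0 and 0 had an unadjusted p under 0.05. The sums were 6879 to 7468 in the cocultures and 6212 to 6661 in the mixes, with Elf5 and Gata3 below the filter. Most of the sum came from the keratin genes Krt8 (0.14) and Krt18 (0.15), while Cdx2 had -0.033 and Eomes 0.0013. The part of these cells in the Pdia6 and Sdf2l1 differences was not tested, and in such bulk RNA more cells of a type and more RNA per cell cannot be told apart.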

How the data were processed

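Expression was measured on 8 Affymetrix arrays, 2 for each of 4 groups, and grouped by the titles in the labels. The deposited values are linear intensities, and the trimmed mean is equal on all arrays, so the authors had scaled them; the software used for summarisation is not given here. They were quantile normalized and put on the scale log2(value + 16). Each gene was represented by its brightest probe set among those with 1 symbol in the platform annotation (updated through RefSeq gene IDs), and genes with a mean signal under 22.1, the 30th percentile, were left out, which kept 14267 of 18194 named genes. Of 45101 probe sets, 34958 had 1 symbol, 932 had several and 9211 were not listed. All 4 groups entered a limma fit (version 3.58.1, R 4.3.3) with 4 residual degrees of freedom, two-sided tests and Benjamini-Hochberg adjustment over all genes. The fit was tested on simulated data. Scaling alone, median centring, other pseudocounts and filters, other probe set rules, other variance models and the omission of each array were the alternatives.

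The members and lists were chosen with earlier results of these data known. In the related lists, the named genes are those with the lowest p, 2 for each list, and others are marked as named for their values. Precision is limited by having 2 arrays for each group. Replicate numbers did not pair the samples: deviations of arrays with the same number correlated at -0.00666 to 0.0506.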

Additional observations from a re-analysis of the deposited data

How the results depend on the processing

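No member passed the adjusted threshold under any of the 19 alternatives; the smallest adjusted p was 0.0656 (Pdia6, limma with trended and robust variances), where 31 genes were called over both knockdowns, 3 in shTop1 and 1 in shp53, against 0 in each. The members' median over both knockdowns was 0.19 with median centring (0.068 over all genes), 0.0094 with each gene's probe sets averaged and -0.018 over every probe set, against 0.094. In shTop1 it was 0.19 with median centring (0.076 over all genes), 0.13 with the authors' scaling alone, -0.064 with probe sets averaged and 0.0035 over every probe set, against 0.062. For shTop1 minus shp53, median centring gave 0.050 in the mixes (0.045 over all genes) and 0.030 in the cocultures (0.060 over all genes), where the authors' scaling gave -0.037 (-0.0075 over all genes). Leaving out 1 array, the median lay between 0.049 and 0.13 over both knockdowns, between -0.011 and 0.20 in shTop1, between 0.044 and 0.11 in shp53, between -0.12 and 0.027 for the difference between knockdowns, between -0.042 and -0.0053 in the mixes, and between -0.11 and -0.036 in the cocultures; a lone array was assumed to vary like the other groups. Canx reversed with median centring (0.059) and the authors' scaling (0.0023), and Pdia3 with probe sets averaged (-0.064). Leaving out 1 array, Canx ran from -0.083 to 0.0029, and Hyou1 from -0.32 without shTop1 coculture replicate 2 to 0.13 without replicate 1. With probe sets averaged, Pdia6 had 0.054, and the members with every coculture above every mix were Pdia4 and Sdf2l1. With the replicate block, Pdia6 had an unadjusted p of 0.0235 and Sdf2l1 of 0.0400 (limma adjusted p = 0.466 and 0.467), and 0 genes were called; the block gave no value for shTop1 minus shp53 within a condition. The cause of these shifts was not tested.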
